A study of Saccharomyces cerevisiae and Neurospora crassa and Schizosaccharomyces pombe with 13 samples.

Results

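Tandem gene pairs are neighbours read from the same strand, so that the 3' end of an upstream gene lies before the 5' end of a downstream one. The pairs described here were selected on the gap between 2 neighbouring genes in the deposited gene annotation of the filamentous fungus Neurospora crassa. A gene's span ran from the lowest to the highest exon base over all its transcripts, the gap counted the bases left between neighbouring spans, and tandem pairs with a gap under 150 bp, overlaps included, were taken. This gave 381 pairs of 4361 tandem pairs and of 9723 neighbouring pairs in all, and they are called close pairs below. The other 3980 tandem pairs are called wider pairs.

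The study made nucleosome footprints by MNase-seq, in which micrococcal nuclease removes the DNA between nucleosomes, from 3 fungi in 13 libraries. Of these, 2 libraries came from N. crassa labelled WT, prepared with the rapid protocol from conidia (asexual spores) grown for 3.5 h in Vogel's solution with sucrose. Over 70% of the conidia had germinated, and crosslinking used 1% formaldehyde for 10 min. Footprints and read depth of the libraries were not analysed here. The annotation belongs to no library, has no replicates, and pairs its identifiers with no gene names or products, so genes are given by identifier and position without a role.

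A transcript begins at its start site, passes through a 5' untranslated region (UTR), the coding sequence and a 3' UTR, and ends at a polyadenylation site. In a tandem pair, the stretch between the coding regions usually holds the terminator of the upstream gene and the promoter of the downstream gene. In fungi that have been mapped, promoters usually carry a nucleosome-depleted region just before the start site, with ordered nucleosomes after it. When 2 tandem genes lie close, the downstream promoter can lie wholly or partly over sequence that is transcribed from its neighbour.

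Close pairs occurred on each of the 7 sequences of the annotation. They made up 8.53% ± 1.28 of the tandem pairs on a sequence (SD, n = 7 sequences). The share was highest on sequence 4 (10.4%, 71 of 684 pairs) and on sequence 1 (9.84%, 99 of 1006). It was lowest on sequence 7, at 7.16% (37 of 517). In all, 746 genes, 7.67% of the 9730 annotated, belonged to at least 1 close pair, and 16 of them belonged to 2. Both strands were used about equally, with 198 close pairs on plus and 183 on minus, against 2015 and 1965 wider pairs. Sequence 2 differed from that balance, with 8 close pairs on plus and 26 on minus, while its tandem pairs numbered 221 and 223. Sequence 4 lay off balance the other way, with 46 close pairs on plus and 25 on minus and tandem pairs of 354 and 330.

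Among close pairs the median gap was 67 bp (quartiles 15 and 111 bp), against 949 bp (quartiles 457 and 2008.25 bp) for wider pairs. These values follow from the rule. Within the limit the pairs were not spread evenly. Counted in steps of 25 bp, the fewest lay between 50 and 74 bp (35 pairs) and the most between 0 and 24 bp (67 pairs), and 6 pairs abutted with a gap of 0 bp. From the limit to 300 bp each step of 25 bp held 78 to 99 pairs. At the limit itself, 3 pairs had a gap of 149 bp and 7 a gap of 150 bp. Taking 1 pair on each side, NCU03501 and NCU03502 on sequence 2, just inside, had facing UTRs of 344 bp (3') and 144 bp (5'), and just outside NCU02149 and NCU02150 on sequence 1 had 731 bp and 109 bp.

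**Figure D1:**
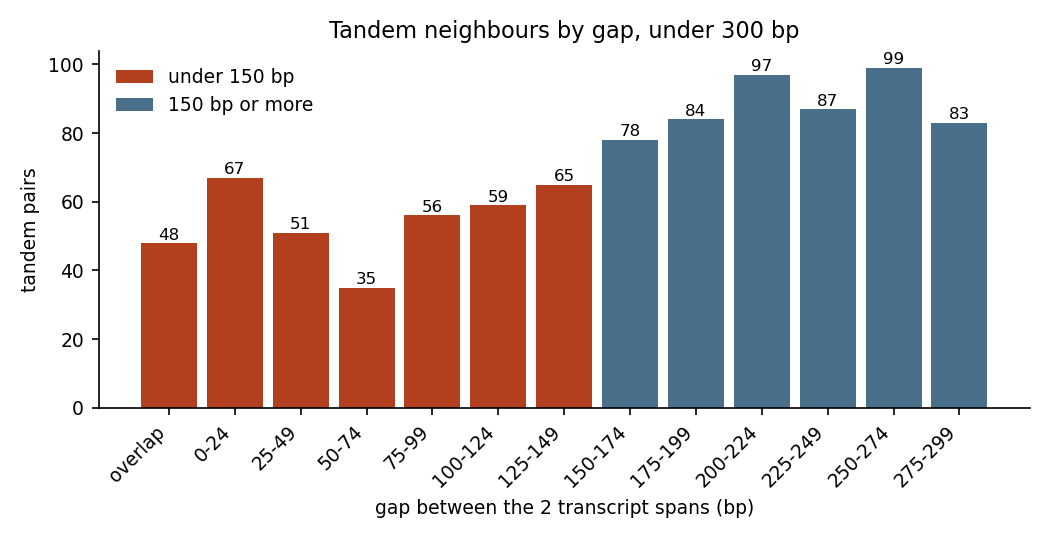
Number of tandem pairs (vertical axis) by the gap between their transcript spans in bp (horizontal axis, steps of 25 bp, all overlaps in the first bar); red bars are pairs under 150 bp and blue bars pairs with larger gaps under 300 bp. Counts run from 35 to 67 in the steps below the limit and from 78 to 99 in the steps after the limit.

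On each sequence the pair nearest to the median gap is given as an example, typical in its gap but not always in its UTRs or coding gap. On sequence 1 it was NCU01858 (2235195 to 2236878, plus strand) and NCU01857 (2236949 to 2241214), 70 bp apart with 502 bp between their coding regions. On sequence 3, NCU06214 (1928122 to 1929353, plus strand) ended 83 bp before NCU06215 (1929437 to 1932816), and the upstream 3' UTR of 723 bp filled most of the 841 bp between the coding regions. In NCU03488 and NCU03489 on sequence 2 (gap 60 bp, minus strand) the facing UTRs measured 514 bp (3') and 547 bp (5'). Their coding gap of 1121 bp lay above the upper quartile of close pairs (922 bp).

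The other 4 of these pairs had coding gaps of 360 to 573 bp. NCU04983 and NCU04984 on sequence 4, 75 bp apart, had facing UTRs of 305 bp and 135 bp. NCU16991, the upstream gene of a pair on sequence 5 with NCU01255 (gap 60 bp), had a coding length of 321 bp, against 2820 bp for its partner. NCU07113 on sequence 6 had no annotated 5' UTR, so its 48 bp gap to NCU07112 ran to the start codon. On sequence 7, NCU06058 and NCU06059 lay 43 bp apart, with 502 bp between coding regions as in the pair on sequence 1.

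The coding regions of close pairs seldom adjoined, and annotated UTRs took up most of the space between them. The gap and the 2 facing UTRs add up to the distance between coding regions, the coding gap, so all 4 quantities are tied to the rule and are given as a description, with no test. The median coding gap was 682 bp (quartiles 479 and 922 bp) in close pairs, against 1576.5 bp (quartiles 1016.75 and 2745 bp) in wider pairs. Only 13 close pairs (3.41%) had a coding gap under 150 bp, and 302 (79.3%) had one under 1000 bp, against 967 wider pairs (24.3%). Where both facing UTRs were annotated and the spans did not overlap, UTRs occupied a median of 90.36% of the coding gap in the 263 close pairs and 48.77% in the 2305 wider ones.

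The facing 3' UTR of the upstream gene was annotated in 352 close pairs (92.4%), against 3008 wider pairs (75.6%). Where annotated, its stretch along the sequence, introns included, measured 386.5 bp at the median (quartiles 262 and 597.25 bp) in close pairs and 346.5 bp (quartiles 209 and 540.25 bp) in wider pairs. The medians of single sequences ran from 344 to 456.5 bp in close pairs and from 310 to 385 bp in wider pairs. The 2 ranges overlapped, and sequence 2 was the one where the close pairs were not above the wider ones (344.5 against 346 bp). An intron lay in this UTR in 26 close pairs (6.82%), against 101 wider pairs (2.54%). These are shares of all pairs, and the UTR was annotated in only 352 close and 3008 wider pairs.

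The facing 5' UTR of the downstream gene was annotated in 328 close pairs (86.1%), against 2855 wider pairs (71.7%). Its median stretch was 269 bp (quartiles 152.75 and 405.75 bp) in close pairs and 342 bp (quartiles 176 and 621 bp) in wider pairs. By sequence the medians ran from 205 to 290 bp in close pairs and from 311.5 to 392 bp in wider pairs, so they did not overlap. The separation did not hold against all wider pairs alike. In wider pairs with gaps under 1000 bp the median was 291 bp and sequences ran from 241 to 322 bp, which overlaps the range of close pairs. The facing 3' UTR of those pairs had a median of 341 bp, with sequences from 305 to 372.5 bp. At the medians, close pairs had a longer 3' UTR but a shorter 5' UTR at the gap than wider pairs. In the 302 close pairs with both, the 3' UTR was the longer of the 2 in 202 (66.9%), against 1131 of 2305 wider pairs (49.1%). An intron in the facing 5' UTR occurred in 34 close pairs (8.92%), against 402 wider pairs (10.1%). These too are shares of all pairs, while the 5' UTR was annotated in 328 close and 2855 wider pairs. They understate the shares among annotated UTRs, more so in wider pairs.

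**Figure D2:**
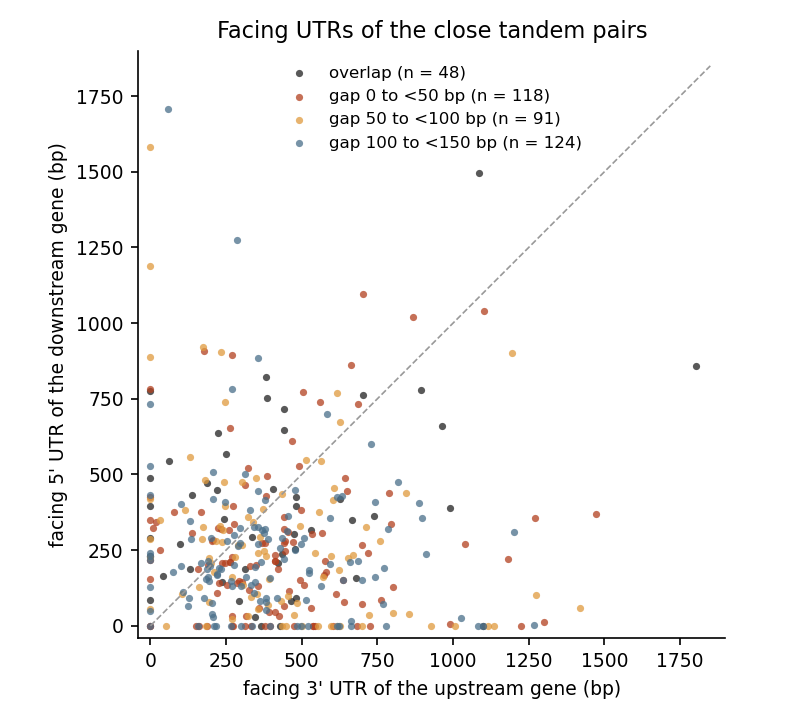
Each point is 1 of the 381 close pairs, with the facing 3' UTR stretch of the upstream gene (bp) on the horizontal and the facing 5' UTR stretch of the downstream gene (bp) on the vertical axis; colours give the gap, points on an axis have no annotated UTR at that end, and the dashed line marks equal lengths. The 3' UTR is the longer in 252 pairs, which lie below the line, counting a UTR that is not annotated as 0 bp.

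Most close pairs had UTRs on both sides of the gap. Both were annotated in 302 pairs (79.3%), the 3' UTR alone in 50 (13.1%), the 5' UTR alone in 26 (6.82%) and neither in 3 (0.787%), against 57.9%, 17.7%, 13.8% and 10.6% of wider pairs. The median coding gap of close pairs was 742 bp with both, 581.5 bp with the 3' UTR alone and 347 bp with the 5' UTR alone. In the 3 pairs with neither, the gap is the coding gap, and it measured 6, 24 and 137 bp. The shortest of these, NCU07646 (390012 to 391739) and NCU07647 (391746 to 392192) on the plus strand of sequence 4, had 6 bp between coding regions and no annotated UTR at any of its 4 ends. It is the shortest coding gap of the close pairs.

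The longest facing UTRs measured well over 1 kb. NCU15835 (1287913 to 1296083, minus strand of sequence 7) had a 3' UTR of 1804 bp, which met a 5' UTR of 857 bp of NCU10015 with an overlap of 30 bp. Their coding regions lay 2631 bp apart, the longest coding gap of any close pair. NCU05208 (5743894 to 5747538, plus strand of sequence 4) had the longest facing 5' UTR, 1708 bp, and began 100 bp after NCU05210, whose 3' UTR measured 59 bp.

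The position of the downstream start relative to the upstream coding region follows from the same quantities. Where the upstream 3' UTR was annotated, the downstream transcript began a median of 453 bp (quartiles 318 and 654 bp) after the upstream stop codon in close pairs, against 1291 bp (quartiles 790.75 and 2328.5 bp) in wider pairs. Where the downstream 5' UTR was annotated, the upstream transcript ended a median of 319 bp before the downstream start codon in close pairs, against 1306 bp in wider pairs. Within close pairs the pooled median coding gap, which contains the gap, was longer in the classes with longer gaps. It was 545 bp in overlapping pairs, 645.5 bp with gaps under 50 bp, 700 bp with 50 bp to under 100 bp, and 716.5 bp from 100 bp to the limit. Means of sequence medians did not keep that order throughout, at 624 ± 357, 631 ± 88.9, 735 ± 116 and 703 ± 87.9 bp.

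Spans overlapped in 48 close pairs (12.6%), by a median of 123.5 bp (quartiles 49.25 and 216.5 bp). In 29 of them the overlap lay within the facing UTRs of both genes. In 13 the downstream transcript began inside the coding span of the upstream gene, in 8 the upstream transcript ended inside the coding span of the downstream gene, and 2 of these pairs had both. Coding spans overlapped in 0 close pairs, and in 0 was 1 gene nested within the other. The largest overlap, 889 bp, joined NCU16347 (2085202 to 2086399) to NCU01903 (2083623 to 2086090) on the minus strand of sequence 1. The coding length of NCU16347 is 192 bp and its 3' UTR measures 665 bp, while NCU01903 has a coding length of 1464 bp. Their coding regions lay 126 bp apart, so that each transcript ran through part of the other's coding span.

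Few pairs owed their place to alternative transcripts. More than 1 transcript was annotated for 26 upstream genes (6.82%) and 28 downstream genes (7.35%) of close pairs, against 357 (8.97%) and 342 (8.59%) in wider pairs. Measured between the longest transcripts alone, 5 of the 381 pairs had a gap of 150 bp or more, and the 48 overlaps all persisted (0 were lost).

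The ends of the genes that face away from the gap do not enter the gap of their own pair. In the 16 genes that belong to 2 close pairs, an outer end of 1 pair borders the gap of the other. Between coding spans only 14 tandem pairs lay under 150 bp apart, against 381 between transcript spans, so most close pairs met the rule through annotated UTRs. Outer UTRs were annotated more often where both facing UTRs were (values below), so the outer shares are not independent of the rule. Their p-values therefore do not measure a difference apart from the rule. The 7 sequences served as units: each value was computed on each sequence, and the signs of the 7 differences were permuted exactly (two-sided), which allows no p below 0.0156. The p-values were adjusted over 11 tests by the Benjamini-Hochberg method, and a result passed at an adjusted p under 0.05. Of the 11, 2 were on the coding gap, which holds the gap the pairs were selected on. They are not read as tests, and results that pass among 11 but not among the other 9 are named. An outer 5' UTR was annotated for 88.9% ± 3.20 of upstream genes in close pairs, against 73.6% ± 2.40 in wider pairs (SD, n = 7). The difference of 15.4 ± 4.23 percentage points was above 0 on 7 of 7 sequences (exact permutation p = 0.0156, adjusted p = 0.0430). For the outer 3' UTR of downstream genes the shares were 87.9% ± 4.48 in close pairs and 74.2% ± 1.99 in wider pairs, a difference of 13.7 ± 4.99 points on 7 of 7 sequences (exact permutation p = 0.0156, adjusted p = 0.0430). Restricting both sets to pairs that have both facing UTRs, the shares for the outer 5' UTR were 96.4% in close and 94.7% in wider pairs, and for the outer 3' UTR 93.4% and 96.3%. The differences of 1.68 and -2.92 points then did not pass (adjusted p = 0.295 and 0.301, exact permutation test). Against wider pairs with gaps under 1000 bp they were 9.61 and 8.89 points and did not pass either (both adjusted p = 0.0573, exact permutation test).

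In the main comparison, outer UTRs of close pairs tended to shorter lengths without passing the adjusted threshold. The outer 5' UTR had sequence medians of 256 ± 47.4 bp in close pairs and 342 ± 31.7 bp in wider pairs. The difference of -85.9 ± 62.5 bp was below 0 on 6 of 7 sequences (exact permutation p = 0.0312, adjusted p = 0.0573). The outer 3' UTR had 279 ± 50.4 bp in close pairs and 351 ± 24.3 bp in wider pairs, a difference of -71.5 ± 52.1 bp, also below 0 on 6 of 7 (exact permutation p = 0.0312, adjusted p = 0.0573). Sequence 2 was the exception at both ends, with 319 against 313 bp (5') and 367 against 344 bp (3'). With means in place of medians the 3' difference passed, at -104 bp (adjusted p = 0.0430, exact permutation test). The 5' difference of -96.3 bp passed among 11 tests (adjusted p = 0.0491, exact permutation test) and not among 9 (adjusted p = 0.0563).

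**Figure D3:**
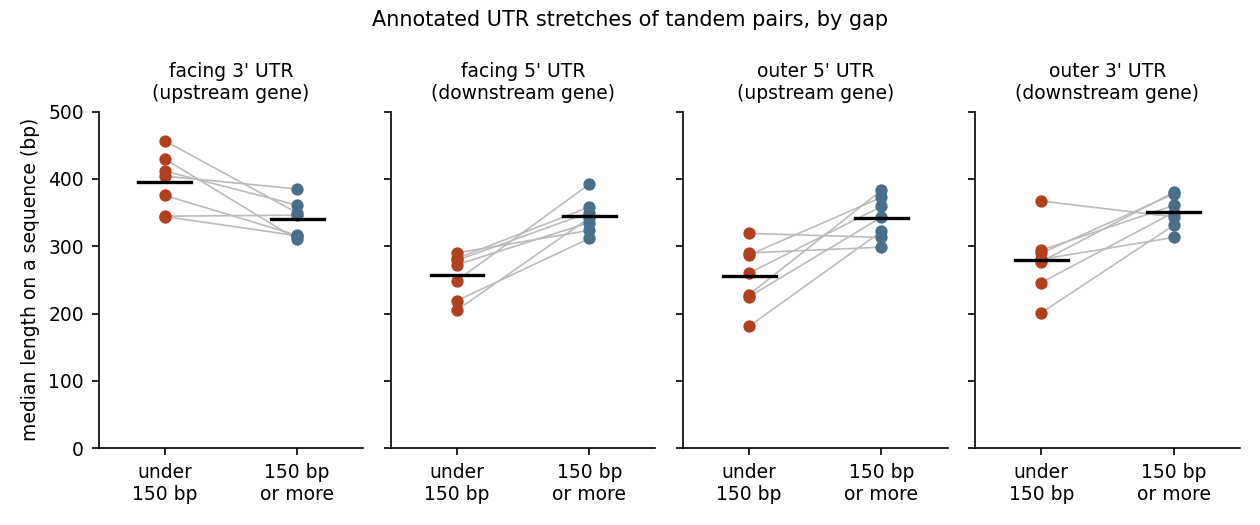
Median UTR stretch in bp (vertical axis) on each of the 7 sequences, for close pairs (red, left) and wider pairs (blue, right); grey lines join a sequence and black bars are means over sequences. At the facing 3' end the mean for close pairs is above that of wider pairs (395 against 340 bp), and at the other 3 ends it is below.

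In the main comparison at the limit of 150 bp, no difference in the coding regions passed the adjusted threshold. Upstream genes had a median coding length of 1220 ± 138 bp in close pairs and 1252 ± 50.9 bp in wider pairs, a difference of -31.7 ± 181 bp (exact permutation p = 0.641, adjusted p = 0.641). Downstream genes had 1148 ± 94.1 bp in close pairs and 1290 ± 43.9 bp in wider pairs. Their difference of -143 ± 137 bp was below 0 on 6 of 7 sequences and did not pass after adjustment (exact permutation p = 0.0469, adjusted p = 0.0737). With means it was -206 ± 137 bp, which passed among 11 tests (adjusted p = 0.0491, exact permutation test) and not among 9 (adjusted p = 0.0563). Among pairs with both facing UTRs it was -292 ± 166 bp, below 0 on 7 of 7 sequences, without passing (adjusted p = 0.0859, exact permutation test). With a limit of 300 bp the difference in medians was -102 ± 53.2 bp, below 0 on 6 of 7 sequences. That passed among 11 tests (adjusted p = 0.0491, exact permutation test) and among 9 (adjusted p = 0.0469). Introns within the coding span averaged 1.49 ± 0.301 per gene in close pairs and 1.61 ± 0.0993 in wider pairs, a difference of -0.123 ± 0.316 (exact permutation p = 0.359, adjusted p = 0.395).

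At sequence medians, and against all wider pairs, outer gaps were shorter beside close pairs. The gaps on the outer sides of the 2 genes, whatever the orientation of the next gene, had sequence medians of 525 ± 112 bp for close pairs and 741 ± 56.0 bp for wider pairs. They ran from 395 to 672 bp for close pairs and from 686 to 823 bp for wider pairs, with no overlap. Outer gaps that are themselves gaps of close pairs were kept, so this measure is partly tied to the rule. On the side after the downstream gene, such gaps made up 16 of the 159 tandem gaps of close pairs and 128 of the 1866 of wider pairs. The side before the upstream gene holds such gaps too, and they are not in these counts. Outer gaps also run to outer UTR ends, which were annotated more often in close pairs. The difference of -216 ± 108 bp was below 0 on 7 of 7 sequences (exact permutation p = 0.0156, adjusted p = 0.0430). It was smaller against wider pairs with gaps under 1000 bp (-88.0 ± 118 bp, adjusted p = 0.0859, exact permutation test) and among pairs with both facing UTRs (-117 ± 104 bp, adjusted p = 0.103, exact permutation test), and neither passed. Means, which single gaps of over 300 kb can move, gave 541 ± 1897 bp in the other direction.

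Pooled over sequences, each kind of outer neighbour had a shorter median gap beside close pairs. The medians by kind and side are given without a spread over sequences. Those of tandem neighbours include gaps that the rule holds under 150 bp. Before the upstream gene the median was 543 bp to a divergent neighbour and 606.5 bp to a tandem one for close pairs, against 841 and 928 bp for wider pairs. After the downstream gene it was 168.5 bp to a convergent and 856 bp to a tandem neighbour for close pairs, against 272 and 898.5 bp for wider pairs. The neighbours were also of different kinds. A divergent gene lay before 62.1% of close pairs (236 of 380) and 52.7% of wider pairs, and a convergent gene lay after 58.3% of close pairs (222 of 381) and 53.1% of wider pairs. With tandem outer gaps alone the difference was -196 ± 89.0 bp on 7 of 7 sequences (adjusted p = 0.0430, exact permutation test). These include the gaps within runs of close pairs, which the rule holds under 150 bp, so this is not a separate test. Overlapping close pairs had a pooled median outer gap of 856 bp (96 outer gaps). The other classes had 438.5, 528 and 418 bp for gaps under 50 bp, 50 bp to under 100 bp, and 100 bp to the limit. Sequence medians varied widely, at 921 ± 400 bp in overlapping pairs and 485 ± 234, 540 ± 223 and 500 ± 191 bp in the other classes. This contrast was not tested.

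**Figure D4:**
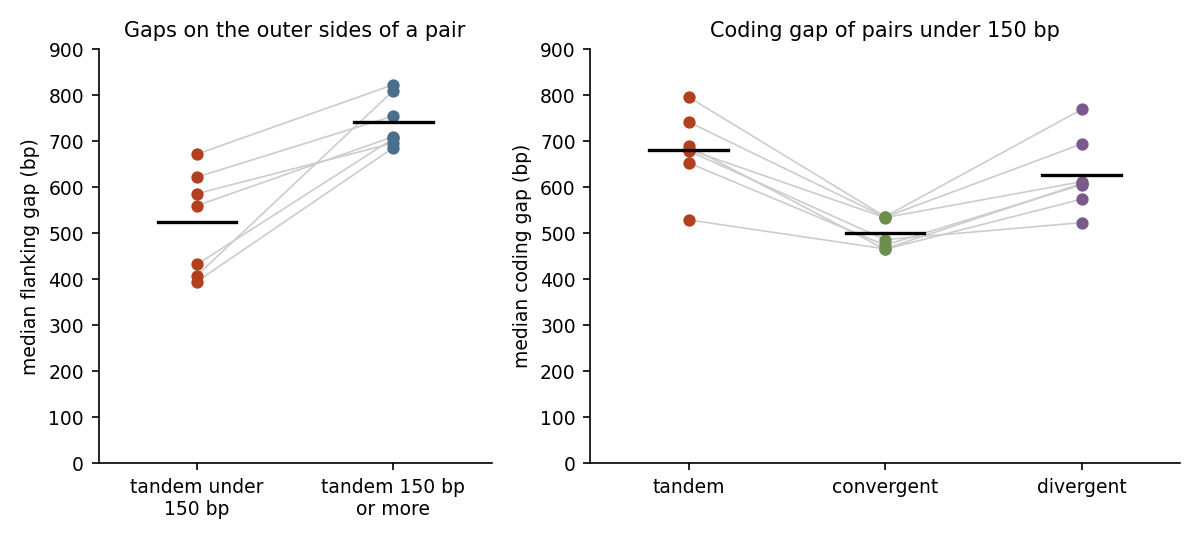
Left, median gap in bp on the outer sides of close (red) and wider (blue) tandem pairs; right, median coding gap in bp of pairs under 150 bp that are tandem (red), convergent (green) or divergent (purple). Each point is 1 of 7 sequences, grey lines join a sequence and black bars are means, which are 525 and 741 bp on the left and 681, 499 and 626 bp on the right.

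Runs of 3 or more genes in which every gap was under 150 bp were few. The 381 pairs formed 365 runs, of which 350 had 2 genes, 14 had 3 genes and 1 had 4. The 15 longer runs held 46 genes, 6.17% of the genes in close pairs, and lay on sequences 1 (2 runs), 2 (1 run), 3 (3 runs), 4 (5 runs), 5 (2 runs) and 7 (2 runs). Sequence 6 had 0. They spanned 3948 to 12221 bp (median 5587 bp), and 45.6% to 76.6% of that was coding. Their 31 gaps had a median of 72 bp with 0 overlaps, and 41 of the 46 genes (89.1%) had both UTRs. Among genes in close pairs the share was 80.9% for identifiers numbered 16000 or above and 84.8% for the others. Among all genes it was 63.7% and 76.4%.

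The run of 4 lay on the minus strand of sequence 3, from 2026717 to 2038937. In the direction of transcription it held NCU06247, NCU06246, NCU06245 and NCU06244, with gaps of 114, 38 and 28 bp. Their coding lengths were 3975, 1878, 2133 and 261 bp. The first 3 genes had both UTRs, and NCU06244 began at its start codon and had a 3' UTR of 640 bp. The 5' UTRs of the other genes measured 769, 256 and 521 bp, and their 3' UTRs 428, 323 and 543 bp.

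**Figure D5:**
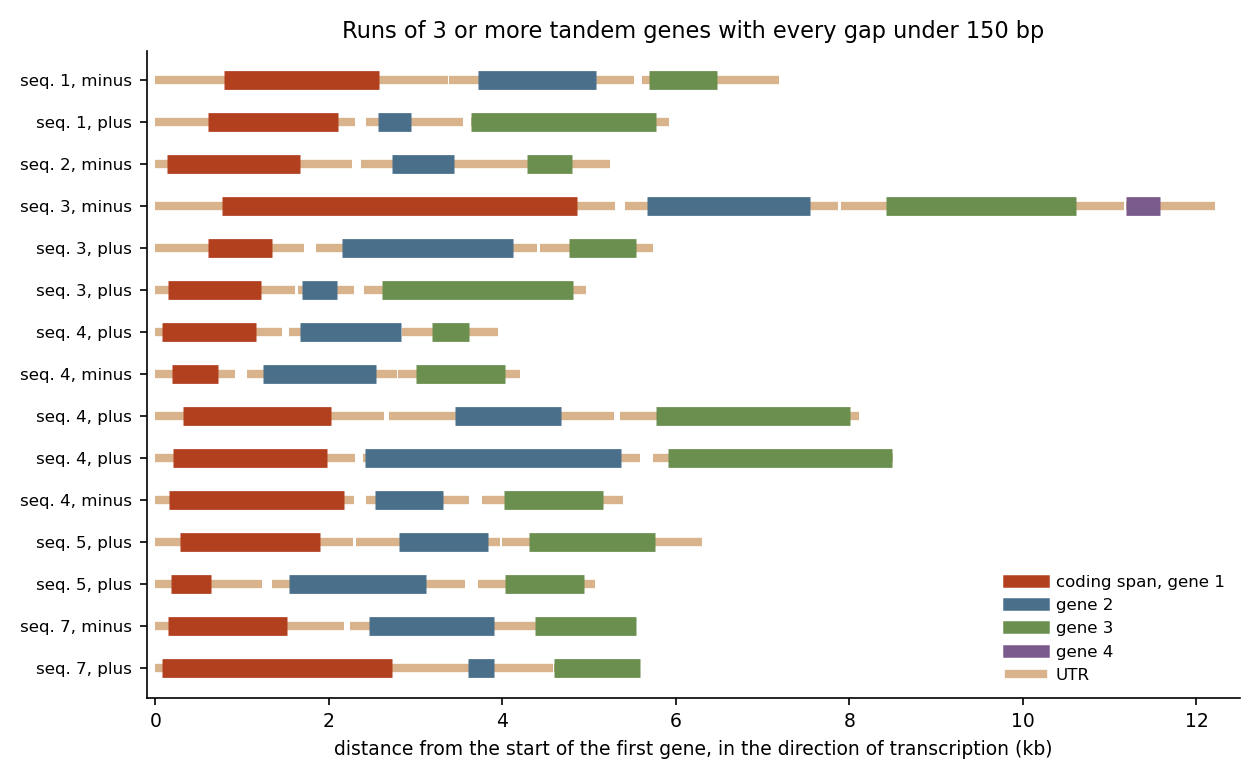
The 15 runs of 3 or more tandem genes drawn to scale, with distance from the start of the first gene in the direction of transcription (kb) on the horizontal axis and 1 run per row, named by sequence and strand; thick bars are coding spans with their introns and thin bars are UTR stretches. White breaks between genes are the gaps, all under 150 bp, and the run of 4 on sequence 3 is the longest at 12221 bp.

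At the limit of 150 bp, a close pair was not followed by another close pair detectably more often than a wider pair was. The preceding and the following pair were both classed by the gap of the rule, so this comparison is tied to the rule. Among tandem pairs followed by a further tandem gene, 16 of 159 close pairs (10.1%) and 128 of 1866 wider pairs (6.86%) were followed by a close pair. Over sequences the shares were 10.1% ± 7.48 after close and 6.59% ± 1.39 after wider pairs, a difference of 3.55 ± 7.10 points above 0 on 4 of 7 (exact permutation p = 0.250, adjusted p = 0.306). With a limit of 300 bp in place of 150 bp the shares were 25.2% and 15.1%, and the difference of 10.1 ± 7.04 points passed, on 7 of 7 sequences (adjusted p = 0.0286, exact permutation test). That limit takes in 909 pairs, so the result does not describe the 381 close pairs alone, and it is tied to the gap in the same way.

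Close pairs of other orientations were set beside them at the same limit, as a description. Of convergent pairs, whose 3' ends face each other, 1300 (48.5%) lay under 150 bp apart, and of divergent pairs, whose 5' ends do, 227 (8.46%) did, against 8.74% of tandem pairs. Overlap made up 12.6% of close tandem pairs, 74.3% of close convergent pairs and 51.1% of close divergent pairs. Both facing UTRs were annotated in 79.3% of close tandem, 86.3% of close convergent and 61.7% of close divergent pairs. The coding gap averaged 681 ± 82.4 bp for close tandem pairs and 499 ± 34.0 bp for close convergent pairs (means of sequence medians). The difference was 182 ± 63.0 bp, and 72.5 ± 74.8 bp without overlapping pairs. Close divergent pairs averaged 626 ± 81.0 bp, and close tandem pairs differed from them by 55.0 ± 74.1 bp. These differences contain the gap itself, whose median was 67 bp for close tandem, -100 bp for close convergent and -2 bp for close divergent pairs.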

How the data were processed

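The deposited file is a gene annotation in GTF format, not made from the 13 libraries. Per the file's source field, the gene models are the NC12 calls, and the sources used here do not give how they were made. The deposited annotation is marked as fixed in its name, and what was changed in it is not stated. From the deposited file, the start and end positions of the records were used (1-based, in bp), and the score field is empty. There is no read depth, so no limit of depth applies.

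The coding span joined CDS and stop codon records (1 transcript has no stop codon record). Facing and outer UTR lengths are stretches from the coding span to the gene's end over all transcripts. A UTR counted as annotated from 1 bp. Coding length and introns came from the transcript with most exonic bases. SDs are over the 7 sequences and describe differences between them. Of the 9730 identifiers, 0 were found in the table of symbols used here, so no names are given, and no N. crassa genome was used, so no sequence is shown. Pairs were named by rule: extremes of overlap, coding gap and facing UTRs, the pairs at the limit, the pair nearest each sequence's median gap, and the longest run.

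Adjustment over 9 tests was added after the data were seen. The pairs and tests were chosen with earlier results of these data known. Python 3.11.15, NumPy 2.4.6 and matplotlib 3.10.9 were used, and the reading of pairs was tested on simulated data.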

Additional observations from a re-analysis of the deposited data

Results flagged for a closer look

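Of 25 sets of 7 sequence values checked, 1 held a value far from the rest, and about 1 such set in 20 arises by chance. The share of upstream genes in close pairs with an annotated 5' UTR was 82.4% on sequence 2, against 88.6% to 91.9% on the other sequences. Sequence 2 has 34 close pairs.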

How the results depend on the processing

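No paired analysis was possible because replicate numbers pair libraries, and the annotation holds no values of libraries. Close and wider pairs were compared within each sequence instead, so the tests are paired by sequence. Leaving out each sequence gave 14.5 to 16.6 points for the share of outer 5' UTRs, 12.2 to 14.6 for that of outer 3' UTRs, -234 to -185 bp for the outer gaps and 169 to 202 bp for tandem against convergent coding gaps. With 6 sequences the smallest exact p is 0.0312, and no adjusted p passed, so these runs bear on sizes only. Upstream coding length ranged from -78.0 to 3.50 bp, with a change of sign. Of the other 69 settings tried, 46 were counted as keeping the direction and the side of the threshold. That count overstates the tests that held. It includes settings of the number of close pairs, which has no direction or threshold and was counted as kept except at 300 bp. It also includes settings of the coding gap, which is not read as a test. Of the 46, 10 moved the value by over 1.5 times. Examples are -130 bp for upstream and -292 bp for downstream coding length with both facing UTRs. Another is -38.4 bp for the outer 5' UTR with a limit of 300 bp. Adjusting over the 9 tests without the coding gap, chosen after seeing the data, gave 0.0469 for the 3 results that passed (exact permutation test) and changed no call on medians. These 3, the shares of outer 5' and 3' UTRs and the outer gaps, are each partly tied to the rule, so passing does not set them apart from it. Means gave -206 bp for downstream coding length, -96.3 and -104 bp for outer 5' and 3' UTRs with adjusted p = 0.0491, 0.0491 and 0.0430 over 11 tests and 0.0563, 0.0563 and 0.0469 over 9 (exact permutation test), and 541 bp for outer gaps. A limit of 300 bp gave 909 pairs, -102 bp (downstream coding length) and -77.5 bp (outer 3' UTR) and 10.1 points (a close pair after a close pair), all 3 passing. That limit takes in more pairs than the close pairs described above. With both facing UTRs annotated the values were 1.68 and -2.92 points (outer UTRs annotated), and -117 bp (outer gaps), none passing. Without overlaps the outer 5' UTR differed by -97.1 bp, which passed. Against wider pairs under 1000 bp the outer UTR shares differed by 9.61 and 8.89 points and the outer gaps by -88.0 bp, none passing. Exonic bases gave -80.1 bp for the outer 3' UTR, which passed. The coding gap, given as a description, differed from convergent pairs by 187 bp with both facing UTRs and 72.5 bp without overlaps. From divergent pairs it differed by 307 bp with means, 121 bp at a limit of 100 bp, -3.50 bp at 300 bp, -35.4 bp with both facing UTRs and -87.6 bp without overlaps. The causes were not tested.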

Other observations

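Genes with identifiers numbered 16000 or above were frequent in close pairs, a pattern noticed after the values were seen and given without a test. Such genes make up 491 of 9730 (5.05%), and the sources used here do not give what the numbering stands for. At least 1 occurred in 78 of 381 close pairs (20.5%), against 392 of 3980 wider pairs (9.85%), and the share was higher in close pairs on 7 of 7 sequences, by 9.52 ± 5.01 points (SD). Among close pairs they occurred in 21 of 48 overlapping pairs (43.8%) and in 57 of 333 pairs without overlap (17.1%). The 89 such genes in close pairs had a median coding length of 570 bp, against 1242 bp for the 657 other genes in close pairs, and 51.7% of them had no coding intron, against 22.4%. Both UTRs were annotated for 80.9% and 84.8% of these groups. Over all genes the block had the same kind of contrast, with a median coding length of 537 bp against 1299 bp for the 9239 other genes, 45.6% against 21.0% without a coding intron and 63.7% against 76.4% with both UTRs.

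In the annotations of the other fungi of the design, tandem genes lay close more often. Between transcript spans, tandem pairs under 150 bp apart made up 8.53% ± 1.28 in N. crassa (SD, n = 7 sequences) and 22.0% ± 0.482 in Schizosaccharomyces pombe (n = 3 chromosomes, RefSeq ASM294v3, where 95.9% of genes extend beyond their coding span). Between coding spans N. crassa had 0.347% ± 0.210, against 1.79% ± 0.418 for S. pombe and 6.38% ± 1.89 for Saccharomyces cerevisiae (n = 15 chromosomes with at least 100 genes, R64). Each species is represented by 1 annotation from a different source, and the difference between species cannot be told apart from the source.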
